A study of Rattus norvegicus with 2 samples.

Results

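Xenobiotic metabolism enzymes were taken here as the rat genes whose symbols begin with Cyp1, Cyp2, Cyp3, Fmo, Gst, Ugt or Sult, without the steroid, bile acid and vitamin branches that share the first letters (Cyp11, Cyp17, Cyp19, Cyp20, Cyp21, Cyp24, Cyp26, Cyp27 and Cyp39). The rule used gene names alone and no measured value, though it was chosen with earlier results of these data known. It found 83 genes, read by 101 probes, among the 13435 genes that could be named on the array. Of these, 40 were phase I genes (cytochrome P450 and flavin monooxygenase) and 43 were phase II genes (glutathione S-transferase, UDP-glucuronosyltransferase and sulfotransferase). The rule also admits a few genes by letters only. Fmod encodes fibromodulin, a collagen-binding proteoglycan and no enzyme, Ugt8 makes galactosylceramide, and Cyp2r1 hydroxylates vitamin D. They are kept in the counts and named where it matters.

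Both arrays hold kidney RNA of PCK females. This rat strain carries a spontaneous Pkhd1 mutation and models recessive polycystic kidney disease. Dosing was oral and daily, starting at 4 weeks of age and ending at 20 weeks. Treated rats were given 10 mg/kg of pioglitazone, a drug that activates PPAR-gamma, and control rats vehicle, 0.5% DMSO. Both groups carry the PCK mutation, and the unaffected +/+ rats named in the treatment text are not analysed here. Each group is 1 array of pooled RNA, from 5 females by the design text and 3 rats by the labelling text, so no difference has a replicate check and no test between groups was possible.

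Phase I enzymes introduce or expose a reactive group on a drug, pollutant or endogenous lipid, mostly by oxidation in the endoplasmic reticulum. Phase II enzymes then attach glutathione, glucuronic acid or sulfate, which makes the product more water soluble. In kidney both phases are concentrated in the proximal tubule, which also secretes the conjugates. In rat liver many Cyp2c, Cyp3a and Sult2a enzymes are abundant and differ between the sexes.

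The values are processed spot signals, which carry an arbitrary brightness unit. A difference is the log2 signal with pioglitazone minus that with vehicle, after each array's 75th percentile was subtracted. Signals are printed before this scaling, which took off 0.08. A gene was measured when its brightest probe lay well above background on both arrays. It was called higher or lower when it differed 1.5-fold and by more than 2 technical errors, the software's error of both spots combined, whose median was 0.20. That error holds no spread between animals. Across all 10480 measured genes the median difference was 0.03.

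Of the 83 genes, 54 were measured, 2 were above background with vehicle alone and 27 on neither array. That is 65.1% measured, against 78.0% of all named genes. Among the 54, 2 were called higher with pioglitazone, Cyp1a1 and Cyp2d3, and 1 lower, Ugt2b7. Over all measured genes 0.754% were called higher, 1.76% lower and 2.51% either way. Without scaling those counts were 130 higher and 117 lower in place of 79 and 184, while the members called were the same with Gstm7 added as higher. The share of members called lower, 1.85%, lay near the background, and the share higher, 3.70%, rests on 2 genes. The other 51 members stayed inside the limits.

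Most member differences were small and positive. Of the 54, 41 were above 0 (75.9%), where 56.2% of all measured genes were. The median was 0.12, an excess over the median of all genes that lay between 0.06 and 0.09 over 6 scalings. Between 39 and 48 members were positive over these scalings, and the share of all measured genes moved with them. It was 52.7% where 39 members were positive (75th percentile of detected probes) and 70.9% where 48 were (no scaling). In 38 members the sign was positive under all 6 and in 6 negative, and in 10 it turned. The 10 are Cyp2b12, Cyp2b15, Cyp2d2, Cyp2d4, Cyp2d5, Gsta1, Gsta3, Gstp3, Sult1b1, which reached 0 at its lowest, and Ugt2b15. Only 4 members, Cyp1a1, Cyp2d3, Ugt2b7 and Gstm7, differed by more than 2 technical errors, where 5.61% of all measured genes did.

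**Figure D1:**
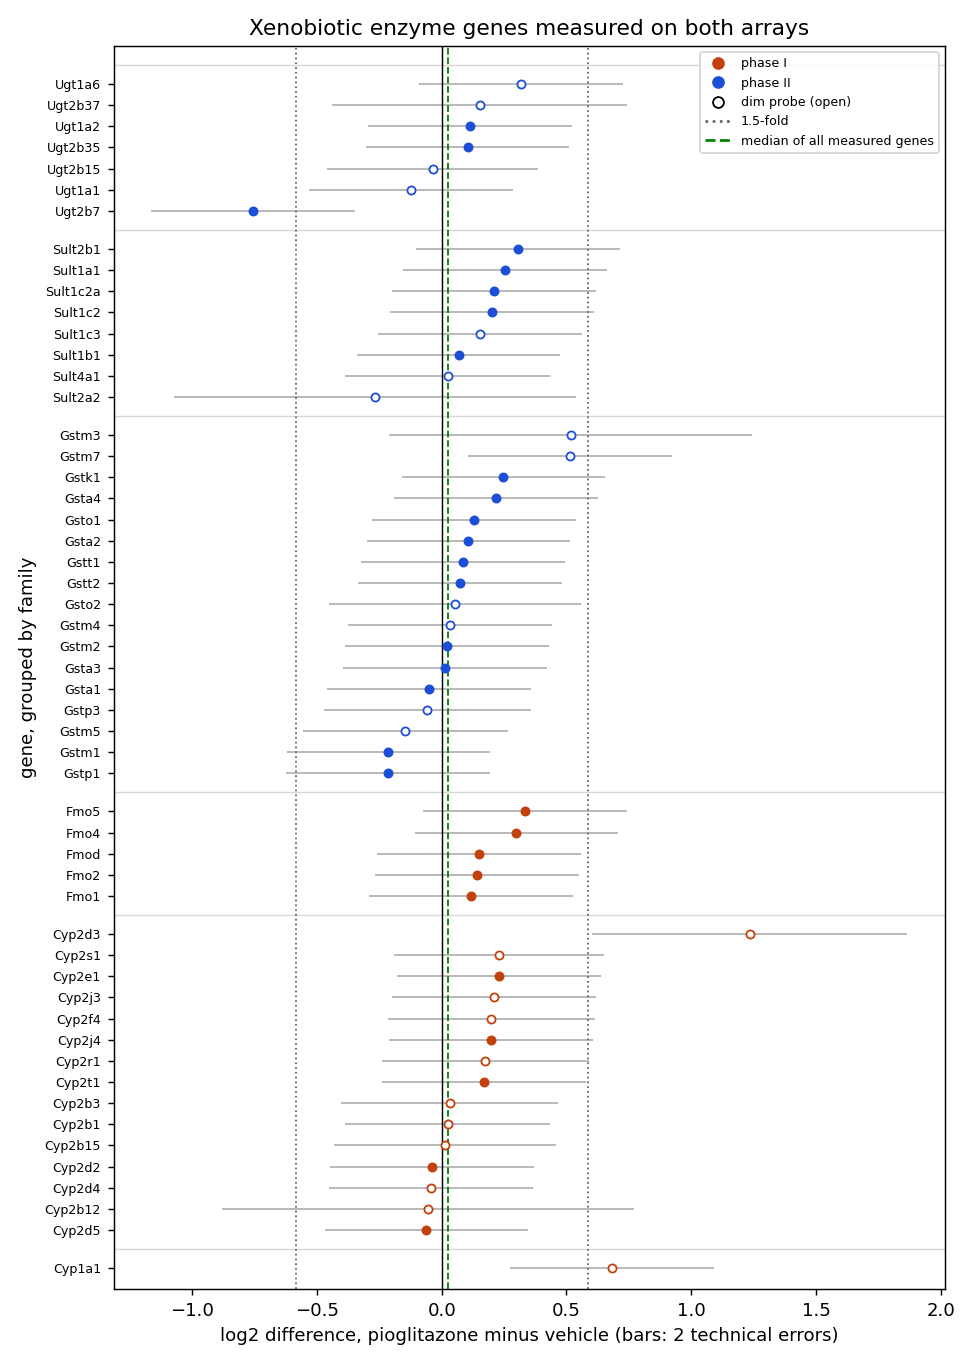
Log2 difference (pioglitazone minus vehicle) of measured genes, by family, with bars of 2 technical errors, open symbols for dim probes and dotted lines at 1.5-fold. Cyp2d3 and Cyp1a1 lie above 1.5-fold and Ugt2b7 below it, and of the genes drawn only these 3 and Gstm7 have bars that do not reach 0.

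The promoters of both called genes with an entry in RefSeq's GRCr8 table are shown, with those of Cyp2d5, a close paralog of Cyp2d3, and of Gstm7, the only other member beyond 2 technical errors. The table held 76 promoters for 73 of the 83 genes. Cyp1a1, the other called gene, was not found in it by symbol, so its promoter was not searched. Each run covers 250 bases before the gene's start and 50 after it, 5′ to 3′ on the gene's strand. The places are chr7:115802093-115802392 (minus strand) for Cyp2d3, chr7:115784438-115784737 (minus) for Cyp2d5, chr14:21251285-21251584 (plus) for Ugt2b7 and chr2:198260270-198260569 (minus) for Gstm7. Capitals mark matches, on either strand, to 5 short motifs: GCGTG, the core bound by the aryl hydrocarbon receptor, TGACNNNGC, the antioxidant response element, a DR1 repeat of the kind bound by PPAR and HNF4 receptors, searched as AGGNCA, any 1 base and AGGNCA again, TATAAA and CCAAT.
Cyp2d3: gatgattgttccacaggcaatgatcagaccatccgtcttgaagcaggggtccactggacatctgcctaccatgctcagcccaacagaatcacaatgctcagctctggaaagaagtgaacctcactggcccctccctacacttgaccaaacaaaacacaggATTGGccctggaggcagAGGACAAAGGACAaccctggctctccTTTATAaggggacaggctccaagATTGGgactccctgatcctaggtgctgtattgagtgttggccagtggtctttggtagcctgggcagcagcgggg
Cyp2d5: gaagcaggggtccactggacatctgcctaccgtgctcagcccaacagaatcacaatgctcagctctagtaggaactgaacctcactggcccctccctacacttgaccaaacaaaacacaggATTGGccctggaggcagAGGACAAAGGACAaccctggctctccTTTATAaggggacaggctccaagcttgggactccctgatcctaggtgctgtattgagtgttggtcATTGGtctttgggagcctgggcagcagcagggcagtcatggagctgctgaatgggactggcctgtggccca
Ugt2b7: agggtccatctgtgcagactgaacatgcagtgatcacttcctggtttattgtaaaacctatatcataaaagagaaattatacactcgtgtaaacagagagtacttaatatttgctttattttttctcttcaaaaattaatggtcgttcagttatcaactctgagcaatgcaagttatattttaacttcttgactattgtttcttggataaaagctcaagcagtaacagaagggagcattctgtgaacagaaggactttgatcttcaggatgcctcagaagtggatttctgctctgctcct
Gstm7: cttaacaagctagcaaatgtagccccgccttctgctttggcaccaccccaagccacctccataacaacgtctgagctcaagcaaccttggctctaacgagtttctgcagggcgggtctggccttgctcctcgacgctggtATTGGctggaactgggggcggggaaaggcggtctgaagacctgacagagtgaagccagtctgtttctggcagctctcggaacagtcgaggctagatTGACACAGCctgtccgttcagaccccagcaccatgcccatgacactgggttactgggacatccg

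The DR1 motif was found 73 bases before the start of Cyp2d3 and 112 bases before that of Cyp2d5, as AGGACAAAGGACA in both. Among all 33469 promoters 0.415% held such a match. Shifted by 39 bases, both Cyp2d promoters were identical at 251 of 261 bases (96.2%). The difference was 1.23 for Cyp2d3, from 1 dim spot per array (10.4 and 25.9), and -0.06 for Cyp2d5. The part of the promoters in these values was not tested. Gstm7 held TGACACAGC, an antioxidant response element match, 14 bases before its start, a motif in 12.1% of all promoters. Of the 76 member promoters 7 (9.21%) held that motif, and 2, those of Cyp2d3 and Cyp2d5, held DR1. Of all promoters 29.7% held GCGTG, 14.2% TATAAA and 37.5% CCAAT. Among the 76 member promoters these were 16 (21.05%), 22 (28.95%) and 40 (52.63%). The differences in share were not tested. None of the 5 motifs was found in the Ugt2b7 window. A match is a description of letters and not a bound site.

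Cyp1a1, which oxidises polycyclic aromatic hydrocarbons and is the classic target of the aryl hydrocarbon receptor, was the called gene with replicate spots, its probe being printed 10 times. The vehicle spots ran from 260 through a median of 272 to 283, and the pioglitazone spots from 443 through 458.5 to 489. No spot of one array reached the range of the other, although all spots of an array share 1 RNA pool. The difference was 0.68 (1.60-fold), with a technical error of 0.20, the mean of single-spot errors and not lowered by the 10 spots. Spot by spot it lay between 0.63 and 0.76. The related Cyp1a2 and Cyp1b1 were above background on neither array.

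Cyp2d3, of a subfamily that oxidises basic drugs, read 10.4 with vehicle and 25.9 with pioglitazone, from 1 spot per array. The difference was 1.23 (2.35-fold), with a technical error of 0.32. The vehicle signal lay close to the lowest signal well above background on that array, 7.66. The spot lies in band 6 of 10 bands of grid rows. Bands 6 and 7 hold 20.1% of all measured genes and 13 of the 54 members. Normexp background correction with an offset of 50 reduced the difference to 0.14 and that of Cyp1a1 to 0.54, and neither was then called. An offset of 50 is larger than both Cyp2d3 signals, so it shrinks such a difference whatever its source. With it, higher calls over all measured genes fell from 79 to 10. The remaining Cyp2d genes were flat, with 857 and 883 for Cyp2d2, 285 and 293 for Cyp2d4 and 472 and 479 for Cyp2d5, in the order vehicle and pioglitazone. Their differences lay between -0.06 and -0.04, and their sign turned between scalings.

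Ugt2b7, which glucuronidates steroids and drugs, read 692 with vehicle and 434 with pioglitazone. This was the only called difference from a bright probe, where bright means a mean signal above the median of all measured genes. The difference was -0.76 (0.592-fold), with a technical error of 0.20, from 1 spot per array. Its 3 measured Ugt2b relatives did not share it. Ugt2b15 was at -0.04, Ugt2b35 at 0.10 and Ugt2b37 at 0.15, all within 2 technical errors. Close paralogs can share probe signal, and probe sequences were not used here.

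Among the other P450 genes, Cyp2e1, which oxidises ethanol and small solvents, offers the other probe printed 10 times. Its vehicle spots ran from 5050 through 5475 to 5730 and its pioglitazone spots from 6190 through 6840 to 7030. The spots did not overlap, and the difference between spots at the same position stayed between 0.19 and 0.25. At 0.23 (1.17-fold) the gene was nonetheless within 2 technical errors, 0.41. That error is the mean of the errors of single spots, so printing the probe 10 times did not lower it. The epoxygenases of arachidonic acid Cyp2j3 (236 and 289) and Cyp2j4 (758 and 920) were at 0.21 and 0.20. Cyp2s1 was at 0.23, Cyp2f4 at 0.20, Cyp2r1 at 0.18 and Cyp2t1 at 0.17. Of 15 measured Cyp2 genes 11 were positive, with a median of 0.17. With normexp correction 8 of 15 were positive.

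The 4 measured Cyp2b genes, relatives of the phenobarbital-inducible liver P450, lay between -0.05 and 0.03. The probes of Cyp2b1 differed from each other. Its brightest probe read 158 and 170, a difference of 0.02. Another probe read 25.5 and 16.2, a difference of -0.74, and the dimmest measured one read 10.2 and 30.3, a difference of 1.49. Their technical errors were 0.31 and 0.32, so both differences were beyond 2 technical errors. Why the probes differed was not tested. The probes of this gene spanned 2.22 on the log2 scale. Of 2417 genes with several measured probes, 0.538% spanned more than 1. The dimmest measured probe lies in the same grid band, 6, as that of Cyp2d3. The other measured member probes of that band were Gstp1 at -0.22, Gstm5 at -0.15, Gsto1 at 0.13 and Sult1c3 at 0.15. Cyp2j4 was at 0.20, Cyp2s1 at 0.23 and Ugt1a6 at 0.32. All of them were brighter than the Cyp2d3 probe and the dimmest measured Cyp2b1 probe. The part of position was not tested. The other Cyp2b1 probes were described after their values were seen.

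**Figure D2:**
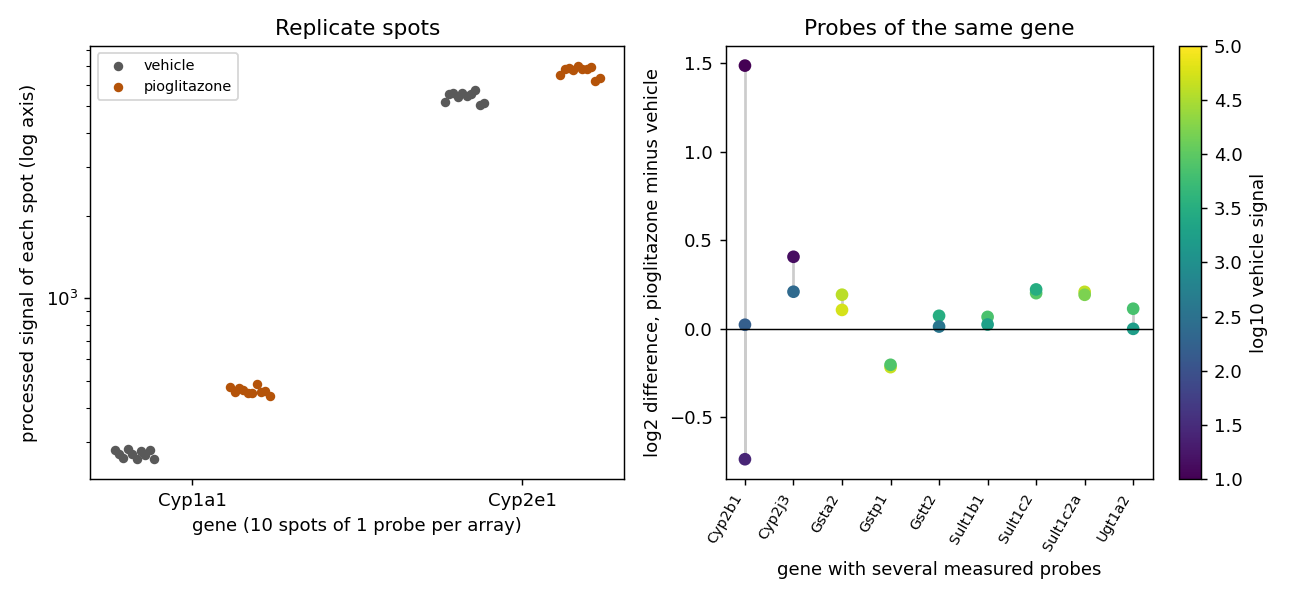
Left, the processed signal (log axis) of each of the 10 spots of the Cyp1a1 and Cyp2e1 probes on the vehicle and pioglitazone arrays. Right, the log2 difference (pioglitazone minus vehicle) of each measured probe of the 9 genes with several, coloured by log10 vehicle signal, where Cyp2b1 spans 2.22 and the others at most 0.20.

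The 8 other genes with several measured probes had the same direction in all of them. Gstp1 was at -0.22 and -0.20, Sult1c2a at 0.21 and 0.19, and Sult1c2 at 0.20 and 0.22. Gsta2 was at 0.11 and 0.19, and Cyp2j3 at 0.21 and 0.41. The Ugt1a2 probes were at 0.11 and 0.0002, so the second is at 0 in effect. Among all genes with several measured probes, 35.3% had probes in both directions.

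Flavin monooxygenases oxidise nitrogen and sulfur atoms of drugs and dietary amines. Fmo5 read 825 and 1100 (0.33) and Fmo4 read 532 and 693 (0.30). Fmo2 read 3040 and 3550 (0.14) and Fmo1 read 6510 and 7470 (0.12). The proteoglycan gene Fmod read 607 and 713 (0.15). These differences were positive under all 6 scalings. Each was within 2 technical errors, and none reached 1.5-fold.

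Of 19 glutathione S-transferase genes 17 were measured, and their median difference was 0.05. The alpha class, which handles lipid peroxidation products, had some of the brightest probes. Gsta1 read 65900 and 67300 (-0.05), Gsta2 read 54900 and 62600 (0.11), Gsta3 read 19200 and 20500 (0.01) and Gsta4 read 12600 and 15500 (0.22). The median of the alpha class turned sign between scalings. The pi class gene Gstp1 read 46200 and 42100, at -0.22 the lowest of the family, and Gstp3 was at -0.06. Omega, theta and kappa genes were slightly positive, with Gsto1 at 0.13, Gsto2 at 0.05, Gstt1 at 0.08, Gstt2 at 0.07 and Gstk1 at 0.25.

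The mu class spread most within the family. Gstm7 read 162 and 245, a difference of 0.51 (1.43-fold) beyond 2 technical errors of 0.41 and short of 1.5-fold. Gstm3 had nearly the same difference, 0.52, but from signals of 9.51 and 14.4 and inside 2 technical errors of 0.73. Gstm1 (449 and 410) was at -0.21 and Gstm5 (117 and 112) at -0.15. Gstm2 and Gstm4 were at 0.02 and 0.03. These genes are close paralogs, so the split between them is uncertain.

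Of the sulfotransferases, which use the donor PAPS, 8 of 12 were measured and 7 were positive, with a median of 0.18. The Sult1 genes, which act on phenols and thyroid hormones, had 5 positive members of 5 measured. Sult1c2a read 42400 and 51900 (0.21), Sult1c2 read 8870 and 10800 (0.20) and Sult1a1 read 1220 and 1540 (0.25). Sult1c3 was at 0.15 and Sult1b1 at 0.07. Sult2b1, a cholesterol and hydroxysteroid sulfotransferase, read 841 and 1100 (0.31). Sult2a2, another hydroxysteroid sulfotransferase, read 9.70 and 8.53 (-0.27), with 2 technical errors of 0.81. Sult4a1 was at 0.02.

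Of the Ugt1a genes, which share their last exons, Ugt1a6, which acts on simple phenols, read 348 and 459 (0.32). Ugt1a2 read 6930 and 7940 (0.11). Ugt1a1, which conjugates bilirubin, read 320 and 311 (-0.12). Ugt8 was above background with vehicle alone, at 14.3 against 9.55. The difference of -0.66 was within 2 technical errors, with a technical error of 0.44. Cyp2c11, a male-specific P450 of rat liver, was also seen with vehicle alone, at 10.7 against 8.18, a difference of -0.47 with a technical error of 0.45. Neither gene was called. Among all named genes 0.841% were above background with vehicle alone. Over the Ugt family 4 of 7 measured genes were positive, with a median of 0.10 that fell below 0, to -0.05, with normexp correction.

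The 27 members above background on neither array had signals of at most 6.98 with vehicle and 7.06 with pioglitazone. They were 27 of 83, where 19.2% of all named genes were above background on neither array. They include all 4 Cyp3a genes (Cyp3a2, Cyp3a9, Cyp3a18 and Cyp3a62), all 3 Cyp2a genes and 5 of 6 Cyp2c genes, among them Cyp2c12 and Cyp2c7. Both Ugt2a genes, Sult2a1, Sult2a6, Sult1d1 and the oestrogen sulfotransferase Sult1e1 are also there. For these genes no fold is given.

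**Figure D3:**
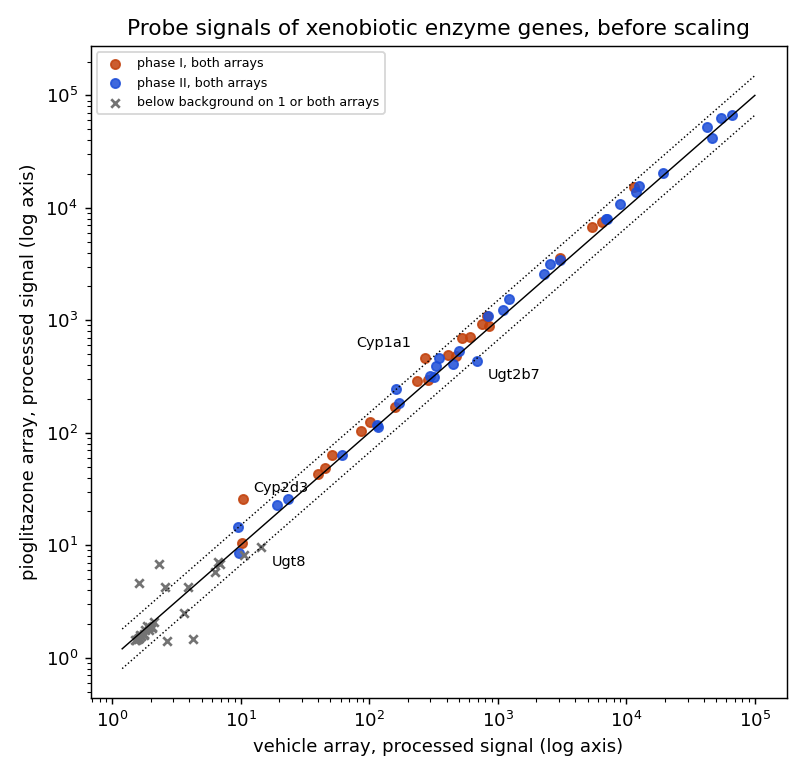
Processed signal of each gene's brightest probe before scaling (log axes), vehicle across and pioglitazone up, for the 83 genes, with the line of equality and dotted lines at 1.5-fold. Crosses are genes below background on 1 or both arrays, and most other points lie slightly above equality.

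Phase I and phase II genes differed in how many were seen, and the phase I median lay slightly higher. In phase I 22 of 40 genes were measured (55.0%) and in phase II 32 of 43 (74.4%). The median difference was 0.17 in phase I, with 18 of 22 positive, and 0.08 in phase II, with 23 of 32 positive. Over 6 scalings phase I lay 0.15 to 0.16 above the median of all genes and phase II 0.03 to 0.05. With no filter on dim probes the order turned, with medians of -0.00051 in phase I and 0.03 in phase II. The ranges of single genes overlapped broadly, from -0.06 to 1.23 and from -0.76 to 0.52. The difference between the phases was not tested, since 1 array per group gives no replicate spread.

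Bright and dim genes were compared at the median signal of all measured genes, a vehicle signal of about 398. The 30 bright members had a median difference of 0.12 with 24 positive (80.0%), where all bright genes had a median of 0.04 and 63.1% were positive. The 24 measured dim members had a median of 0.04 with 17 positive (70.8%), where all dim genes had a median of -0.004 and 49.2% were positive. The order of bright and dim members was not stable. With quantile normalization their medians were 0.07 and 0.09, and with cyclic loess 0.08 and 0.07. With normexp correction 12 of 24 dim members were positive. Within phase I the medians of bright and dim genes were alike, 0.17 and 0.18. Within phase II they were 0.10 and 0.03. Calls were rarer among bright genes, 0.668% of all of them against 4.35% of dim genes, and both members called higher were dim.

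Genes that serve these enzymes showed small differences of the same kind. Their lists were chosen with earlier results of these data known. P450 reductase (Por), which passes electrons to every microsomal P450, read 2050 and 2630 (0.28). Of 11 electron donor and haem genes 9 were positive, with a median of 0.11, Cyb5r2 at 0.42 and the haem oxygenase Hmox1 at -0.30. Of 25 genes that supply or recycle glutathione, glucuronic acid or PAPS 21 were positive, with a median of 0.13. The nucleotide sugar carrier Slc35d1 was at 0.58, the glutathione-degrading Chac1 at 0.37 and the glutamate-cysteine ligase subunit Gclm at 0.28. No gene of these 2 lists was called. Slc35d1 was called higher under 4 other scalings, at 0.60 to 0.66, and was at 0.08 with normexp correction.

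Of 34 other phase I genes 26 were positive, with a median of 0.09 and no call. The carboxylesterase Ces1d read 11400 and 17200 (0.51) and the aldo-keto reductase Akr1c1 read 11800 and 17700 (0.50), both beyond 2 technical errors of 0.41. Ces1e was at 0.46. Among 18 other conjugating genes 11 were positive, with a median of 0.05, and Glyatl1, a glycine N-acyltransferase-like gene, was called higher at 0.60. That call was lost when arrays were scaled on the 75th percentile of detected probes (0.58) and with normexp correction (0.27). Nnmt, which methylates nicotinamide, was at -0.47 and Mgst2 at -0.36.

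Of 17 receptors and factors 12 were positive, with a median of 0.09 and no call. The xenobiotic receptor PXR (Nr1i2) was at 0.22 and Hnf4a at 0.29, while Nfe2l2, the antioxidant response factor, was at 0.01 and the aryl hydrocarbon receptor partner Arnt at -0.07. Ppard was at 0.34, Pparg at -0.30 and Cebpb at -0.53. The other xenobiotic receptor, CAR (Nr1i3), was above background with pioglitazone alone, at 12.4 against 2.80, at least 1.53-fold higher. Both signals are dim, the technical error was 0.92, and Nr1i3 is not among the measured genes. Nr1i3, Nr1i2, Hnf4a, Nfe2l2 and Arnt were named for their roles after the values were seen.

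Kidney cell markers were read on the same arrays. All 23 proximal tubule markers with a probe were measured, 21 were positive, and their median was 0.18. Kap (864 and 1900) was the only one called, higher at 1.05. Their summed signal was 542286 with vehicle and 622264 with pioglitazone. Collecting duct markers had a median of 0.15 over 12 genes, thick limb and distal markers 0.06 over 8 and endothelial markers 0.05 over 10. Macrophage markers were negative in all 14 measured genes, with a median of -0.35. Itgam, Trem2 and Gpnmb were called lower, 3 of 14 where 1.76% of all genes were, and Cd163 was above background on neither array. Their summed signals were 35345 and 31331. The part of these cell types in the enzyme differences was not tested, and in whole kidney fewer cells of a type and less RNA per cell cannot be told apart.

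Markers of tissues that could be carried along were also read. Of 22 hepatocyte markers 18 were measured, 5 of them positive, with a median of -0.25 and summed signals of 17418 and 15692. F2 (4940 and 4640), Tf (3770 and 3030) and Fgb (3690 and 3020) supply most of both sums. Albumin (Alb) read 24.8 and 19.2, and Tat was above background on neither array. Of 14 adrenal markers 8 were measured, with a median of 0.13 and summed signals of 6817 and 8242, and Cyp11a1, Cyp11b2, Cyp21a1, Mc2r and Chgb were above background on neither array. Akr1b7 (784 and 1800), called higher, supplies most of the rise in the sum. Cyp11b1 was seen with vehicle alone, 28.9 against 1.42, at least 4.27-fold lower. Of 15 adipocyte markers 13 were measured, 4 of them lower, with a median of -0.07, a sign that turned between scalings, and Lep on neither array. Retn (276 and 60.4), Ucp1 (310 and 95.4), Cfd (1140 and 534) and Thrsp (158 and 87.5) were the lower ones. Car3 was seen with vehicle alone, 38.0 against 7.82, at least 5.14-fold lower. The summed signals of 13851 and 15462 include Pck1 (6140 and 8070), also a proximal tubule marker, and without Pck1 the sum was lower with pioglitazone. The part of these tissues in the enzyme differences was not tested.

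**Figure D4:**
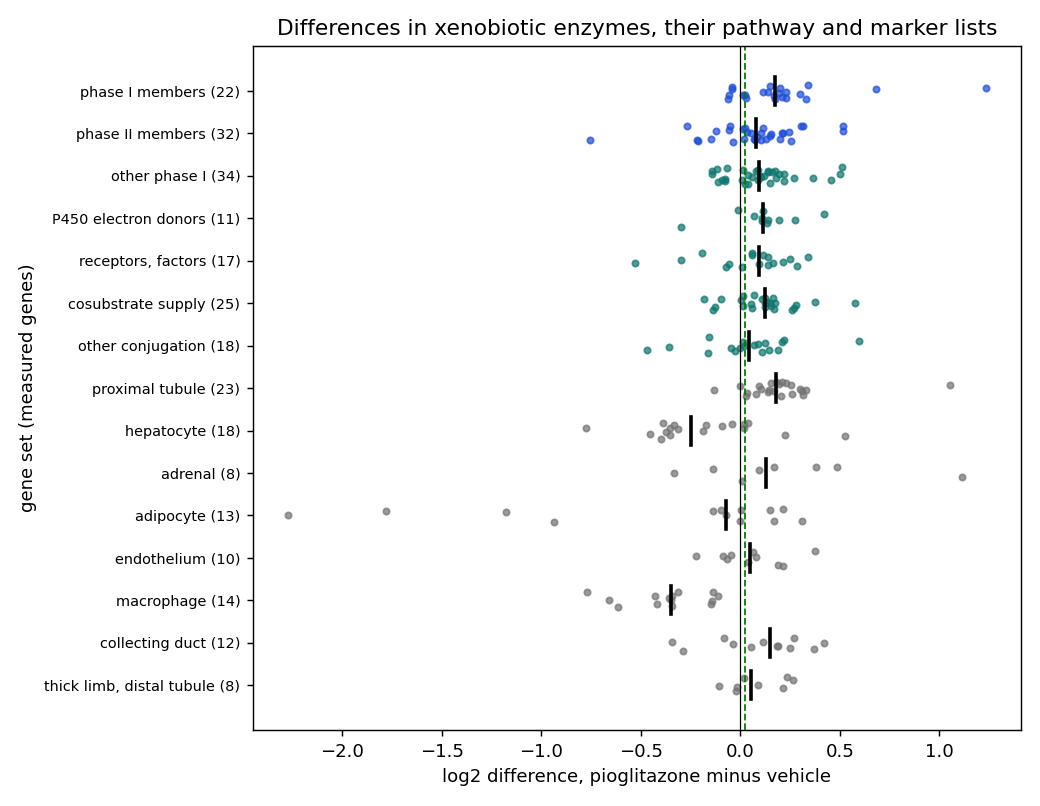
Log2 difference (pioglitazone minus vehicle) of each measured gene in the enzyme phases, pathway lists and marker lists, with numbers of genes in brackets, black bars at set medians and the dashed line at the median of all measured genes. Phase I, phase II and the pathway lists sit between medians of 0.05 and 0.17, the proximal tubule list at 0.18 and the macrophage list at -0.35.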

How the data were processed

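Kidney RNA was hybridised to 1 one-colour Cy3 array per group, both on 1 slide per the file headers. The authors' deposited intensity values were made with Agilent Feature Extraction 10.7.3.1, per the submitters' processing notes. Per the file headers they are background-subtracted and detrended within each array and not scaled between arrays. The deposited value table equals them at all 45018 features, with medians of 46.8 and 47.7. Deposited flags and other fields mark outliers and detection.

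From 43379 spots besides controls, 149 flagged ones were left out, replicate spots were averaged, and log2 signals were centred on each array's 75th percentile. No spot was saturated. Well above background were 71.8% and 73.1% of spots. Probes were named through unversioned RefSeq accessions (GRCr8), 16959 of 40998 (41.4%), none with several symbols. The file headers name an older build, and none of its coordinates are used. A gene took its brightest probe, with every spot well above background. A bound sets the detected array against the other array's own value or its lowest detected value, whichever is higher. The number of arrays limits precision. The procedure was tested on simulated data. A withheld item enters counts and medians and is not reported here.

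Members and lists were chosen with earlier results of these data known. Named members are those called, the 10 largest differences in each direction with measured probes in 1 direction, the brightest 6 of phase I and 8 of phase II, bounds of 1.5-fold and families with under 6 measured members, with 3 genes per pathway list. Other members were named to complete their families, after values were seen. Python 3.11.15, pandas 2.3.3 and limma 3.58.1 (normexp) were used.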

Additional observations from a re-analysis of the deposited data

How the results depend on the processing

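Medians and counts were recomputed under 15 alternatives. The medians ran from 0.023 to 0.20 for all members, -0.00051 to 0.26 for phase I, 0.03 to 0.16 for phase II, 0.07 to 0.21 for bright and -0.13 to 0.13 for dim members, so shifts were as large as the medians. Members called higher numbered 0 with normexp correction and above the median signal, and 1 with a 2-fold threshold (Cyp2d3) and without grid bands 6 and 7 (Cyp1a1). Over all measured genes the higher calls fell from 79 to 10, 5, 17 and 59 under the same settings, in that order. Calls thus became rarer over the whole array and not only among members. With each gene's dimmest measured probe 3 members were called higher, with Cyp2b1 added. Higher calls over all genes then rose to 100. Without scaling 3 members were also called higher, with Gstm7 added. Members called lower numbered 0 at 2-fold, where lower calls over all genes fell from 184 to 30. With no filter on dim probes the medians were 0.023 for all members, -0.00051 for phase I and -0.13 for dim members, since genes below background then enter. Among 649 recomputed differences of named genes 12 shifted by more than 0.09, the spot noise of a difference, all with normexp. Dropping the scaling shifts every gene by 0.08 and cannot pass that limit. Many of the other recomputed differences could not pass it either. Alternatives that change only a threshold, a filter or the set of members leave each difference as it was. The choice of probe cannot move a gene with 1 probe. The small number of shifts is therefore no measure of stability. No called gene changed sign. Ugt2b7 kept its call in all alternatives except 2-fold. The planned normexp on mean signals used median signals, the column these files hold. Without Fmod and Cyp2r1, 39 of 52 members were positive. With normexp correction 34 of 54 members were positive, where 48.5% of all measured genes were. No paired analysis was possible because a single array stands for each group. Signal over background limits the dim members, and no alternative supplies a spread between animals.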
